A study of Mus musculus with 24 samples.

Results

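White adipose tissue (WAT) was set against brown adipose tissue (BAT) in male C57Bl/6J mice on a high-fat diet (HFD) made with corn oil. The members are the 8 arrays whose titles give these tissues and this diet, 4 of WAT and 4 of BAT, out of 24 arrays in the series. Of the other 16 arrays, 8 came from the same tissues on an HFD with added EPA and DHA, the long-chain omega-3 fatty acids of fish oil (EPA/DHA), and 8 on a low-fat diet. Total RNA was labelled with Cy3 and read on Illumina expression arrays. All animals were of the same sex and strain, and no gene was altered. For each diet, 4 mice were chosen to stand for their group in body weight and plasma lipids, so the spread between arrays is that of picked animals. The labels give neither the WAT depot, the age nor the length of feeding, and the protocol for RNA extraction speaks of skeletal muscle although the samples are given as fat. They do not tie a WAT array to a BAT array of the same mouse.

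Brown adipocytes hold many small lipid droplets and densely packed mitochondria, and they burn fatty acids and glucose to make heat. The heat comes from uncoupling protein 1 (Ucp1), which lets protons back across the inner mitochondrial membrane without making ATP. White adipocytes store triglyceride, mostly in a large droplet, and release hormones such as leptin. Fat also holds progenitors, vessels, macrophages and other immune cells. In such bulk RNA, fewer cells of a type and less RNA per cell cannot be told apart.

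Values are log2 expression of the brightest probe of each gene, and differences are WAT minus BAT in log2 units with their standard error. A difference of 1 unit stands for a 2-fold difference where the scale is a plain log2. The scale runs from a floor near 7 to 14.79, so differences that reach either end can be understated. Arrays correlated at 0.9849 to 0.9939 within WAT and at 0.9862 to 0.9923 within BAT, and at 0.8936 to 0.9259 between the tissues. No 2 arrays held the same values.

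The labels held on their defining genes. Ucp1 read 7.11, 7.13, 7.18 and 9.38 in the WAT arrays, against 14.14, 14.06, 13.55 and 13.91 in the BAT arrays. Leptin (Lep), the satiety hormone of white fat, read 14.17, 14.29, 14.63 and 14.70 in WAT, against 11.56, 11.11, 11.83 and 10.19 in BAT. The groups did not overlap for either gene, and WAT replicate 4 stood above its group for Ucp1. Adiponectin (Adipoq), a hormone of all adipocytes, was high in both tissues, at 14.23 ± 0.16 in WAT and 13.42 ± 0.16 in BAT (SD, n = 4 each).

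Some arrays stood apart. The mean of 22 skeletal muscle markers was 7.47 to 7.52 in WAT, against 9.66, 9.45, 11.55 and 11.33 in BAT replicates 1 to 4. The mean of 19 liver markers was 11.49, 10.99, 9.20 and 10.57 in WAT replicates 1 to 4, against 7.35 to 7.89 in BAT. Of these 19 markers, 3 had probes too dim to test. BAT arrays 3 and 4 read highest for the muscle list, and WAT array 3 was the lowest WAT array for the liver list. Results that touch these transcripts are also given without BAT arrays 3 and 4, or with both marker means as covariates in the fit. Their part in the other results was not tested beyond those fits. Across the series the liver mean was 9.09 or more in every WAT array and 8.27 or less in every BAT array. The covariates thus nearly track the tissue, which widens the standard error of its difference. For Gpnmb the difference was 3.14 with them (limma adjusted p = 0.126), against 3.20 without (0.000166). A call lost with the covariates therefore does not tell whether the difference came from muscle or liver RNA.

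**Figure D1:**
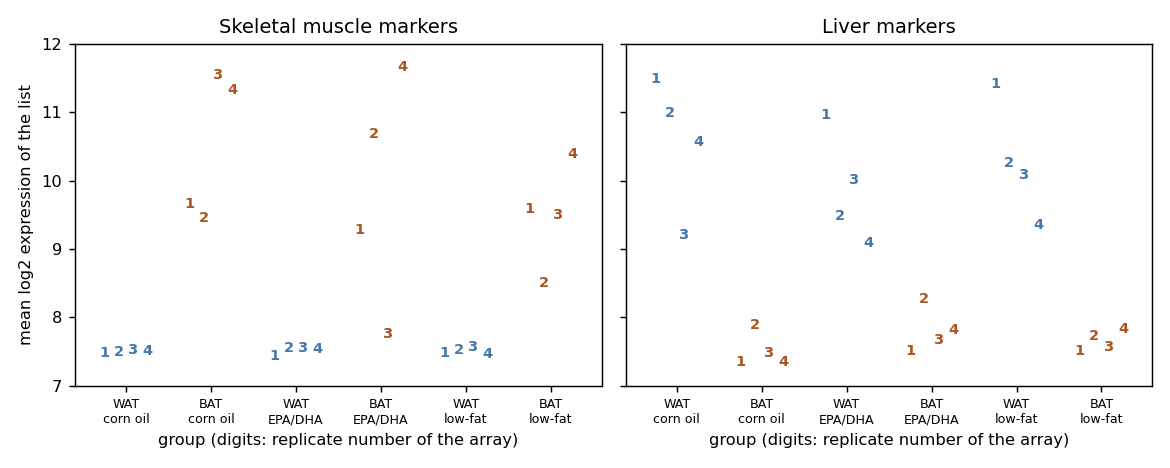
Mean log2 expression of the skeletal muscle list (left) and of the liver list (right) in every array of the series, by tissue and diet. Each digit is the replicate number of an array. On corn oil the muscle mean is 11.55 and 11.33 in BAT arrays 3 and 4 and at most 7.52 in WAT, and the liver mean lies above 9 in the 4 WAT arrays and below 8 in the 4 BAT arrays.

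The tissues differed widely. In limma's fit over all 24 arrays, 10138 of 29493 probes (34.4%) passed an adjusted p of 0.05, 5343 higher in WAT (18.1%) and 4795 lower (16.3%). By gene, 5865 of 14262 (41.1%) passed, with 3250 higher (22.8%) and 2615 lower (18.3%). A difference of at least 1 log2 unit was found for 1183 genes (8.29%), 649 higher in WAT (4.55%) and 534 lower (3.74%). The WAT and BAT arrays did not overlap for 6001 genes (42.1%), 3262 higher in WAT (22.9%) and 2739 lower (19.2%). The median difference over all tested genes was 0.0, and counts of gene lists below are to be read against these shares. In 261 of the 1183 genes the lower tissue averaged under 7.5, close to the floor. With the muscle and liver means as covariates, 4551 probes passed, 2219 higher and 2332 lower. Among the genes named below, 28 calls were lost in that fit. Of these, Apoa2, Ckmt2, Myh4 and Pgam2 changed sign, and the muscle genes Ckm (-0.38, against -3.70 without covariates), Cox6a2 (-0.21 against -3.70), Mylpf (-0.46 against -4.56), Tnnc2 (-0.60 against -4.82) and Des (-0.54 against -2.36) lost most of their difference. Mup2 (2.81 against 6.02), Upk3b (0.53 against 1.31), Ebp (0.36 against 0.87), Nampt (-0.42 against -0.88), Fads1 (0.74 against 1.36) and Ebf2 (-0.46 against -0.72) were smaller by over 1.5 times. In the other 13, Bcat1, Bhlhe40, Ciita, Ckb, Eln, Fasn, Gpnmb, Hoxc6, Pdgfra, Pecam1, Ppargc1a, Tfam and Tpi1, the difference was within 1.5 times of its value without covariates although the call was lost. When arrays were centred on ribosomal protein genes, the median difference of the kept probes was -0.31, against -0.007 as deposited, and 2000 probes were called higher and 23692 lower.

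**Figure D2:**
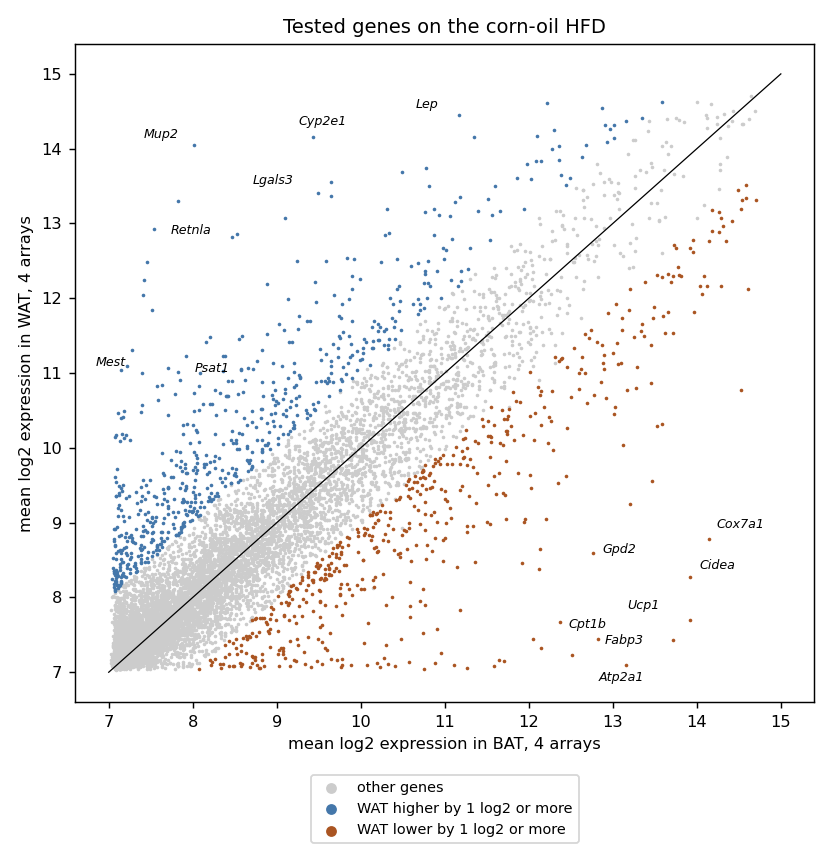
Mean log2 expression of each of the 14262 tested genes in WAT (vertical axis) and in BAT (horizontal axis), 4 arrays each on corn oil; the line marks equal values. Blue points are the 649 genes higher in WAT by 1 log2 unit or more and brown points the 534 genes lower by as much, and Fabp3, Ucp1 and Cidea lie farthest below the line among adipocyte genes.

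The largest differences towards BAT were those of fuel handling and heat, next to muscle genes. Fabp3, a fatty acid binding protein of oxidative tissues, read 7.11, 7.13, 7.13 and 8.35 in WAT, against 13.70, 13.78, 13.72 and 13.67 in BAT. Its difference was -6.29 ± 0.39 (adjusted p = 6.94e-11). Ucp1 followed with -6.22 ± 0.57 (2.27e-08) and Cidea, a lipid droplet protein of brown fat, with -5.65 ± 0.52 (2.55e-08). Cidea read 7.56, 7.64, 8.08 and 9.83 in WAT, against 14.08, 13.92, 13.82 and 13.87 in BAT. In each of these 3 genes WAT replicate 4 was the highest WAT array and still lay under every BAT array. Of the 15 largest differences in this direction, 8 belong to muscle, namely Atp2a1, Pvalb, Tnni2, Tnnc2, Mylpf, Tcap, Mb and Tpm2. The others were Cox7a1, Cpt1b, Acot11 and Gpd2 beside Fabp3, Ucp1 and Cidea.

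Of 19 brown adipocyte genes tested, 14 were lower in WAT, none was higher, and 5 did not pass. The median difference was -1.37, and the count was 14 without BAT arrays 3 and 4. Acot11 (thioesterase superfamily member 1, an acyl-CoA thioesterase of brown fat) averaged 7.45 ± 0.30 in WAT and 12.05 ± 0.30 in BAT, a difference of -4.60 ± 0.27. Pank1, which starts coenzyme A synthesis, was lower by the same order (-3.74 ± 0.34). Letmd1, a mitochondrial protein needed for thermogenesis in mouse brown fat, differed by -3.47 ± 0.16. Among the coactivators that drive mitochondrial genes, Ppargc1b was at 7.83 ± 0.19 in WAT and 11.18 ± 0.16 in BAT (difference -3.34 ± 0.18). Ppargc1a read 7.38, 7.35, 7.38 and 7.47 in WAT, against 10.01, 9.87, 8.91 and 11.38 in BAT (-2.65 ± 0.46, adjusted p = 9.6e-05). The WAT arrays of Ppargc1a lay together near the floor, while BAT arrays 3 and 4 were the lowest and the highest of their group. With the muscle and liver covariates its difference was -2.42 and did not pass (adjusted p = 0.143).

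The transcription factors of the brown lineage differed less on this scale. Ebf2, which opens brown fat chromatin, differed by -0.72 ± 0.10, the positional factor Zic1 by -0.61 ± 0.06, and Prdm16, a coregulator that sets brown fate, by -0.46 ± 0.10. Zic1 was near the floor in WAT (7.06 ± 0.03) and low in BAT (7.67 ± 0.15). Kcnk3, a potassium channel of brown fat, differed by -1.81 ± 0.17. Dio2, the deiodinase that makes active thyroid hormone in brown fat, read 7.08 to 7.15 in WAT and 7.42 to 8.05 in BAT. The arrays did not overlap, but the difference of -0.58 ± 0.22 missed the threshold (adjusted p = 0.0502). Without BAT replicate 3 it passed (-0.67, adjusted p = 0.0398). Elovl3, an elongase induced in brown fat by cold, was at the floor in both tissues (-0.01 ± 0.25, adjusted p = 0.989). A probe near the floor does not show that its gene is off.

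**Figure D3:**
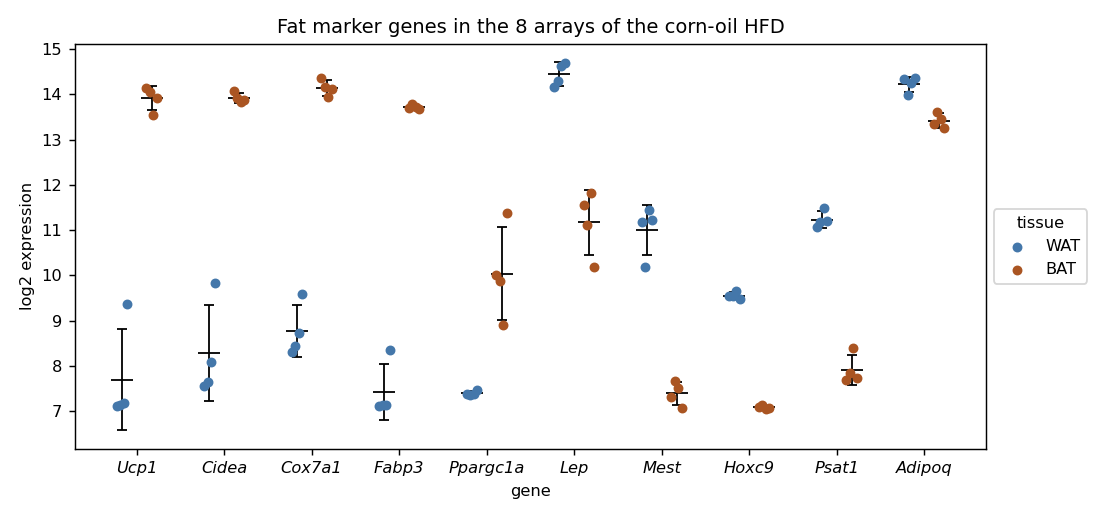
Log2 expression of 10 fat marker genes in the 4 WAT arrays (left of each pair) and the 4 BAT arrays (right of each pair) on corn oil; points are arrays, and black marks are the mean ± SD. Ucp1, Cidea, Cox7a1, Fabp3 and Ppargc1a are low in WAT, Lep, Mest, Hoxc9 and Psat1 are high in WAT, and Adipoq is high in both tissues.

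Mitochondrial genes were lower in WAT almost without exception. Complex I, which takes electrons from NADH, had 34 subunits tested, and 34 were lower in WAT (median -1.45). Their differences ranged from -0.30 ± 0.07 for Ndufb11, the smallest (named after its value was seen), to -2.39 ± 0.16 for Ndufb5. Ndufs8, an iron-sulphur subunit, showed how tight the arrays were, with 10.79, 10.65, 10.64 and 10.77 in WAT against 12.97, 12.78, 12.73 and 12.65 in BAT. Its difference was -2.07 ± 0.08 (adjusted p = 6.72e-14). Of complexes II and III with cytochrome c, 11 of 13 genes were lower (median -1.72), led by Uqcrc1, a core subunit of complex III, at -2.59 ± 0.11. Sdhb, the iron-sulphur subunit of succinate dehydrogenase, differed by -2.56 ± 0.13. The exceptions, Sdha and Uqcrfs1, read near the floor in all 8 arrays.

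Cytochrome c oxidase (complex IV) separated the tissues most through its muscle-type isoforms. In all, 13 of 14 subunits were lower in WAT, with a median of -1.36. Cox7a1, the isoform of heart, muscle and brown fat, read 8.32, 8.45, 8.74 and 9.60 in WAT, against 14.36, 14.16, 13.94 and 14.12 in BAT. Its difference was -5.37 ± 0.42 (1.8e-09), while its widely expressed partner Cox7a2 differed by -0.96 ± 0.09. The tissue-restricted Cox8b differed by -3.76 ± 0.36, with BAT arrays at 14.51 to 14.57 near the top of the scale. Cox6a2 differed by -3.70 ± 0.72, against -1.39 ± 0.10 for its partner Cox6a1. Cox6a2 read 9.97 and 9.85 in BAT arrays 1 and 2 but 12.22 and 11.82 in arrays 3 and 4, the order of the muscle markers. Cox7a1 did not follow that order, with BAT array 3 the lowest of its group, and the BAT arrays of Cox8b were too near the top of the scale to show one. Cox4i1 differed by -1.04 ± 0.06, and its isoform Cox4i2 was near the floor in both tissues.

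ATP synthase (complex V) was the only respiratory complex among those tested with members higher in WAT. Of its 15 genes, 12 were lower and 3 higher (median -1.23). Atpif1, which inhibits the enzyme's reverse reaction, read 11.26, 11.51, 11.52 and 11.28 in WAT, against 9.82, 9.87, 10.15 and 9.69 in BAT. The groups did not overlap, and the difference was 1.51 ± 0.11 (adjusted p = 1.25e-09). Atp5g3, which encodes the ring subunit c, was higher by 0.60 ± 0.08, while Atp5g2, which encodes the same mature subunit, was lower (-1.34 ± 0.09). Atp5j was higher by 0.50 ± 0.16 on its brightest probe, but a second probe of the gene gave -1.49 and the mean of its probes -0.49, so its direction is unsettled. Atp5j did not pass without BAT replicate 1 (0.41, adjusted p = 0.0692) or WAT replicate 3 (0.41, adjusted p = 0.0712).

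Nuclear-encoded respiratory genes often carry sites for the nuclear respiratory factors in their promoters. In windows of 300 bases around the gene start (RefSeq, GRCm38.p6), the NRF1 palindrome was looked for on both strands. It was present in 5 of 65 respiratory complex genes that had a window (7.7%), in 14 of 439 genes lower in WAT by 1 unit or more (3.2%) and in 6 of 514 higher by as much (1.2%), against 216 of 11449 tested genes (1.9%). The GABP core CCGGAAG was in 23.1% of the respiratory genes, 19.8% of the genes lower in WAT and 6.8% of those higher, against 16.6% of all. A TATA box (TATAAA) was in 9.2% of the respiratory genes, 8.9% of the genes lower in WAT and 17.1% of those higher, against 11.4% of all. The extended half-site of the estrogen-related receptors (TNAAGGTCA) was in 3 of the 65 respiratory windows (4.6%), including that of Atp5g3, which was higher in WAT. It was in 1.1% of the genes lower in WAT and 1.0% of those higher, against 1.0% of all, and in 0 of 27 genes of the citric acid cycle and fatty acid oxidation and 0 of 23 of the mitochondrial ribosome. The PPAR direct repeat, which shares the letters AGGTCA with that half-site, was in 0 of the 65 and in 5 of 11449. A match is not shown to be a bound site. The 4 respiratory promoters with the palindrome in the 250 bases before the gene start are printed to show where it lies, in capitals. They were chosen after the search, and 2 of these genes, Ndufa11 (-1.59 ± 0.11) and Atp5k (-0.86 ± 0.12), are named for that reason. Atp5g2 lies at chr15:102671048-102671297 (minus strand), Atp5k at chr5:108434400-108434649 (minus), Cox6a1 at chr5:115348959-115349208 (minus) and Ndufa11 at chr17:56717512-56717761 (plus).
Atp5g2: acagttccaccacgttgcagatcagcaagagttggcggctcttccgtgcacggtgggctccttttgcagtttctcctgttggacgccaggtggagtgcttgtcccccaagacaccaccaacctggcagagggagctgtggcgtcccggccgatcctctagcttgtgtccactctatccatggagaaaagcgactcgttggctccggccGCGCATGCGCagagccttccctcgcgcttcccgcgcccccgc
Atp5k: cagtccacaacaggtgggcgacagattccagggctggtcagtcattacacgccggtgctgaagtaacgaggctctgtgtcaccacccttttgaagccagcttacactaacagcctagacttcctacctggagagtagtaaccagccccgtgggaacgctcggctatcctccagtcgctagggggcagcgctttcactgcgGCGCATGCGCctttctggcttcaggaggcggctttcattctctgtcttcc
Cox6a1: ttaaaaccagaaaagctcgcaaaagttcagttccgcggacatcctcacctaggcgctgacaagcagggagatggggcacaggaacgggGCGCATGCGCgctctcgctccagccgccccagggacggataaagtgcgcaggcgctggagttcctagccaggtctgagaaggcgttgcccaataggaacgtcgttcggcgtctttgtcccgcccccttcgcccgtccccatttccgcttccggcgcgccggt
Ndufa11: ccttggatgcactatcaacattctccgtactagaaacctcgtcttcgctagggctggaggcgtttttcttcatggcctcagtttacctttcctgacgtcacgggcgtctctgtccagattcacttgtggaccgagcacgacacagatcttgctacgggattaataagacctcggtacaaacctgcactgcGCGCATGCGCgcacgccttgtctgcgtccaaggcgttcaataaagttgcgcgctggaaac
The palindrome starts 42 bases before the gene start in Atp5g2, 50 before it in Atp5k, 162 before it in Cox6a1 and 60 before it in Ndufa11.

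Fuel supply to the respiratory chain differed in the same direction. All 12 citric acid cycle genes tested were lower in WAT (median -2.02). Ogdh, the catalytic subunit of oxoglutarate dehydrogenase, averaged 9.62 ± 0.14 in WAT and 12.44 ± 0.07 in BAT, a difference of -2.81 ± 0.11. Citrate synthase (Cs) differed by -1.94 ± 0.12. Of 10 genes around pyruvate dehydrogenase, 7 were lower, 1 was higher and 2 did not pass. Pdk4, the kinase that shuts pyruvate dehydrogenase during fat burning, read 8.93, 9.59, 9.33 and 10.37 in WAT, against 13.30, 13.60, 13.07 and 13.93 in BAT (-3.92 ± 0.39). The enzyme's own subunit Pdha1 was also lower (-2.21 ± 0.20), and Pdk3, another kinase of the family, was the gene higher in WAT (0.55 ± 0.05).

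Mitochondrial fatty acid oxidation had 18 of 19 genes lower in WAT and none higher, with a median of -1.50. Cpt1b, the muscle and brown fat isoform of the carnitine palmitoyltransferase that admits fatty acids to mitochondria, read 7.41, 7.46, 7.50 and 8.29 in WAT, against 12.53, 12.51, 12.19 and 12.26 in BAT. Its difference was -4.71 ± 0.30 (adjusted p = 1.11e-10). The thiolase Acaa2 (-3.95 ± 0.23) and the very-long-chain dehydrogenase Acadvl (-3.27 ± 0.16) came next. Cpt1a, the liver-type isoform, was at the floor in both tissues (0.01 ± 0.03) and is the member that did not pass. The mitochondrial ribosome, which makes the subunits encoded in mitochondrial DNA, had 28 of 30 proteins lower in WAT (median -1.05). Mrpl34 led with -1.94 ± 0.09.

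Of 14 regulators of mitochondrial number and transcription, 12 were lower in WAT (median -0.63), and 5 with the muscle and liver covariates. Perm1, a muscle regulator that acts with the Ppargc1 coactivators, was at 7.18 ± 0.05 in WAT and 9.78 ± 0.26 in BAT (-2.60 ± 0.12). Esrra, the orphan receptor that these coactivators bind, differed by -1.74 ± 0.09, and Esrrg by -1.37 ± 0.14. Tfam, which packs and transcribes mitochondrial DNA, differed by -0.81 ± 0.13. Nrf1 (-0.14 ± 0.07, adjusted p = 0.143) and Polg, the mitochondrial DNA polymerase (-0.17 ± 0.08, adjusted p = 0.108), did not pass. Without BAT arrays 3 and 4 the counts of complex I, the citric acid cycle, fatty acid oxidation and the mitochondrial ribosome were the same, with medians of -1.51, -2.03, -1.60 and -1.12.

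**Figure D4:**
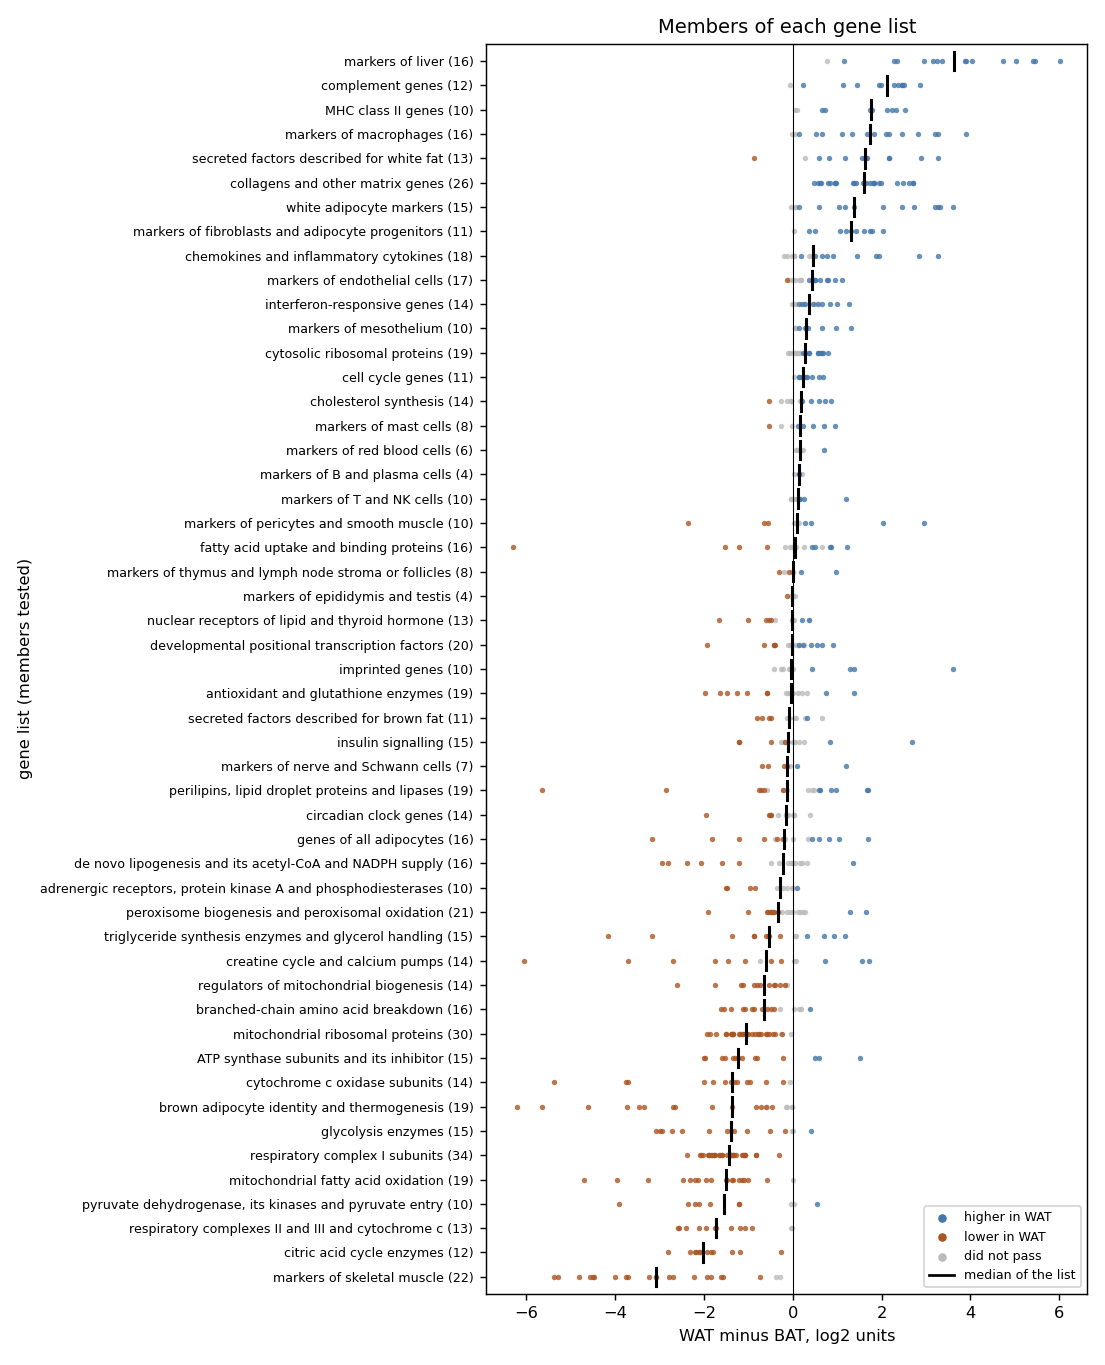
WAT minus BAT difference (log2 units) of each tested member of the 51 gene lists, sorted by the median of the list (black bar); the number of members tested is in brackets. Liver, complement, MHC class II and macrophage genes lie to the right, with higher values in WAT, and muscle, citric acid cycle and respiratory genes to the left.

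Glycolysis was also lower in WAT, with 12 of 15 genes lower, 1 higher and 2 not passing (median -1.39). Pfkl, the liver-type phosphofructokinase, read 9.77, 10.18, 10.06 and 10.18 in WAT, against 13.32, 13.07, 12.94 and 13.12 in BAT (-3.07 ± 0.12). Among the muscle isoforms, Pfkm read 10.61 and 10.53 in BAT arrays 1 and 2 and 11.97 and 11.43 in arrays 3 and 4 (-2.73 ± 0.25), and it passed without the last pair and with the covariates (-1.59). Pgam2 read 9.27 and 8.95 in BAT arrays 1 and 2 and 11.18 and 10.91 in arrays 3 and 4, and without the last pair its difference of -2.01 did not pass (adjusted p = 0.059). The list then had 11 genes lower. With the covariates it had 8 lower and 0 higher (median -1.02). Triosephosphate isomerase (Tpi1) was the gene higher in WAT (0.42 ± 0.13), a call that was lost without WAT replicate 2 (0.37, adjusted p = 0.056) or WAT replicate 4 (0.37, adjusted p = 0.0573), and a dimmer probe of Tpi1 gave -0.18. The insulin-responsive glucose transporter Slc2a4 differed by -1.21 ± 0.10.

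Fat synthesis genes split. Of 16 lipogenic genes, 6 were lower in WAT, 1 was higher and 9 did not pass, while centring on ribosomal protein genes gave 11 lower. The elongase Elovl6 differed by -2.94 ± 0.36, the mitochondrial acetyl-CoA carboxylase Acacb by -2.82 ± 0.23, and the sugar-responsive factor Mlxipl (ChREBP) by -2.39 ± 0.19. Fatty acid synthase (Fasn) read 7.71 to 8.15 in WAT, against 8.99 to 9.29 in BAT (-1.22 ± 0.20, adjusted p = 6.53e-05). With the muscle and liver covariates the difference of Fasn was -1.23 and did not pass (adjusted p = 0.0904). Stearoyl-CoA desaturase (Scd1) read 14.09 to 14.55 in WAT and 14.19 to 14.58 in BAT, at the top of the scale, and did not pass (-0.05 ± 0.12, adjusted p = 0.802). Fads1, a desaturase of polyunsaturated fatty acids, was the member higher in WAT (1.36 ± 0.18).

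Triglyceride synthesis and storage also differed by member. Of 15 genes of triglyceride synthesis and glycerol handling, 9 were lower in WAT, 4 were higher and 2 did not pass (median -0.54). With the covariates 4 of them were lower and 3 higher. The glycerol phosphate shuttle was far lower in WAT, with Gpd2, its mitochondrial enzyme, at 8.45, 8.42, 8.63 and 8.88 against 12.93, 12.79, 12.63 and 12.73 in BAT. The difference of Gpd2 was -4.17 ± 0.17 (adjusted p = 2.55e-13), and that of its cytosolic partner Gpd1 was -3.16 ± 0.20. By contrast, Gpat3 (1.17 ± 0.13) and Dgat2 (0.93 ± 0.12), the first and last acyltransferases of the pathway, were higher in WAT. Of 19 lipid droplet proteins and lipases, 6 were higher, 6 lower and 7 did not pass, and with the covariates 4 were higher and 3 lower. Plin5, the perilipin that holds droplets at mitochondria, was lower (-2.86 ± 0.14), as was Cidea. Cidec (1.69 ± 0.12), which fuses droplets in white fat, and Plin4 (1.67 ± 0.09) were higher. Caveolin-1 (Cav1), the coat protein of caveolae, was higher by 1.22 ± 0.10, and Cavin3, another caveolar coat protein, by 3.98 ± 0.21. The common adipocyte genes Fabp4 (-0.18, adjusted p = 0.312) and Cd36 (0.0, adjusted p = 0.981) did not pass. Their differences could be understated if these probes lie at either end of the scale.

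Breakdown of branched-chain amino acids had 11 of 16 genes lower in WAT, 1 higher and 4 not passing (median -0.64). Bckdk, the kinase of the branched-chain dehydrogenase (-1.62 ± 0.10), and Bckdha, the dehydrogenase's own subunit (-1.55 ± 0.12), were both lower. Slc25a44, the mitochondrial carrier for these amino acids in brown fat, differed by -1.08 ± 0.12. Bcat1, the cytosolic transaminase, was the member higher in WAT (0.38 ± 0.07). Of 21 peroxisomal genes, 9 were lower and 2 higher, and with the covariates 3 were lower. The fatty acid transporter Abcd2 was higher in WAT (1.66 ± 0.20), whereas its relative Abcd3 was lower (-1.01 ± 0.16). Carnitine acetyltransferase (Crat) differed by -1.90 ± 0.09. Cholesterol synthesis had 5 of 14 genes higher and 1 lower, led by Ebp (0.87 ± 0.13). This count was 3 without BAT replicate 3, BAT replicate 4, WAT replicate 3 or WAT replicate 4, and 1 with the covariates. Centring on ribosomal protein genes gave 2 higher and 4 lower, with a median of -0.13, against 0.18 as deposited.

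Among 14 genes of the creatine cycle and of calcium pumping, 8 were lower in WAT and 3 higher. Atp2a1, the calcium pump of fast muscle, read 7.13, 7.07, 7.10 and 7.08 in WAT, against 12.25, 12.28, 14.06 and 14.04 in BAT (-6.06 ± 0.80). The muscle creatine kinases Ckm (-3.70 ± 0.68) and Ckmt2 (-2.70 ± 0.62) had the same 2 high BAT arrays. Without those arrays, 5 genes of the list were lower instead of 8 (2 with the covariates), and Ckmt2 did not pass (-1.61, adjusted p = 0.0828). Phospho1, a phosphatase, was lower with BAT arrays at 8.13 to 8.41, so it did not follow them (-1.08 ± 0.08). Gamt, the last enzyme of creatine synthesis, was higher in WAT (1.72 ± 0.17), as were the calcium pump Atp2a3 (1.55 ± 0.12) and brain-type creatine kinase Ckb (0.72 ± 0.15).

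Antioxidant genes had 7 of 19 lower in WAT and 2 higher, with 13 lower under centring on ribosomal protein genes. Glutathione peroxidase 3 (Gpx3), a secreted enzyme, differed by -1.97 ± 0.23, and Gsta4, which clears lipid aldehydes, by -1.63 ± 0.09. The glutathione transferase Gstm1 was higher in WAT (1.37 ± 0.14).

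Signalling genes differed in fewer members. Of 10 genes of the adrenergic and protein kinase A pathway, which turns on heat production, 4 were lower in WAT and 1 was higher, and under centring on ribosomal protein genes 10 were lower. The 4 were the phosphodiesterase Pde4d (-1.50 ± 0.15), the stimulatory G protein gene Gnas (-1.48 ± 0.11), adenylyl cyclase Adcy3 (-0.96 ± 0.12) and the catalytic kinase subunit Prkaca (-0.86 ± 0.07). Of 15 insulin pathway genes, 4 were lower and 2 higher, with 10 lower under that centring. Igf1, the growth factor, read 11.03, 11.17, 11.00 and 10.93 in WAT, against 8.23, 8.22, 8.60 and 8.37 in BAT. Its difference was 2.68 ± 0.14 (adjusted p = 7.93e-12), and the adaptor Grb14, which inhibits the insulin receptor, was lower (-1.20 ± 0.14). Among 13 nuclear receptors, Ppara, which drives fatty acid oxidation, was at 7.17 ± 0.07 in WAT and 8.82 ± 0.22 in BAT (-1.65 ± 0.13). Pparg, the master regulator of fat cells, was high in both and did not pass (-0.41 ± 0.18, adjusted p = 0.0901), though it was lower in WAT without BAT replicate 3 (-0.53, adjusted p = 0.0328). Of 14 clock genes, 4 were lower and 10 did not pass, a count that rested on single arrays. It was 1 without BAT replicate 2 or WAT replicate 2, 2 without WAT replicate 1 or 3, 1 without BAT arrays 3 and 4, 2 with a replicate block, 0 with the covariates and 10 under that centring. Bhlhe40, a repressor of the clock, had the largest difference of the 4 (-1.96 ± 0.32).

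White adipocyte markers were higher in WAT, with 12 of 15 higher and none lower (median 1.37). Mest, an imprinted gene linked to fat cell growth, read 11.17, 10.19, 11.44 and 11.22 in WAT, against 7.32, 7.67, 7.52 and 7.07 in BAT (3.61 ± 0.37, adjusted p = 1.24e-07). Psat1, an enzyme of serine synthesis, read 11.06, 11.17, 11.50 and 11.21 in WAT, against 7.69, 7.85, 8.40 and 7.73 in BAT (3.32 ± 0.13, adjusted p = 2.08e-13). The BAT arrays of Psat1 were low, with array 3 the highest. Lep was higher by 3.28 ± 0.38 (adjusted p = 7.01e-07), with the WAT arrays near the top of the scale and BAT replicate 4 the lowest of its group. Gamma-synuclein (Sncg), abundant in white adipocytes, was higher by 3.20 ± 0.26, and the amino acid transporter Slc7a10 by 2.73 ± 0.14. Of 13 secreted factors described for white fat, 11 were higher in WAT (median 1.62), among them Nnmt, the nicotinamide methyltransferase (2.89 ± 0.16), orosomucoid (Orm1, 2.17 ± 0.18) and haptoglobin (Hp, 1.67 ± 0.19). With the muscle and liver covariates 9 of these 13 were higher and 0 lower (median 1.30). Chemerin (Rarres2) was higher by 2.17 ± 0.23 on its brightest probe, while a dimmer probe gave -0.64. Nampt, which makes NAD, was the member lower in WAT (-0.88 ± 0.16). Adipoq differed by 0.81 ± 0.09, with no overlap between the arrays.

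The Lep promoter is shown because it carries a C/EBP palindrome (TTGCGCAA, in capitals), the site through which C/EBP-alpha acts on the gene in mouse adipocytes. The palindrome was in the 300-base windows of 3 genes higher in WAT by 1 unit or more (0.6%) and of none of the 439 lower, against 31 of 11449 tested genes (0.3%). The 250 bases before the gene start lie at chr6:29059971-29060220 on the plus strand (RefSeq, GRCm38.p6), and the palindrome starts 55 bases before the gene start.
Lep: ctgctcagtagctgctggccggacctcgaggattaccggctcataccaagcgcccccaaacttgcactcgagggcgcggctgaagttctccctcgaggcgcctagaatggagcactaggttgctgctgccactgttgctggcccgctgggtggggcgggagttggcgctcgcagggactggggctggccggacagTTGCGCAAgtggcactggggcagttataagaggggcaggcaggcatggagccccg

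Of 20 positional factors of development, 6 were higher in WAT and 5 lower, near the shares over all genes (22.8% and 18.3%). With the covariates 2 were higher and 3 lower, and under centring on ribosomal protein genes 2 and 13. In the Hox clusters, genes of a higher number mark more posterior tissue. Hoxc9 and Hoxc10 are not among these 20 factors, whose largest difference towards WAT was 0.91 (Hoxc6). Hoxc9 read 9.54, 9.54, 9.66 and 9.47 in WAT and 7.06 to 7.13 in BAT, at the floor (2.47 ± 0.11, adjusted p = 4.21e-13). Hoxc10 was at 8.16 ± 0.24 in WAT and 7.11 ± 0.04 in BAT (1.05 ± 0.09), and Hoxc6 was higher by 0.91 ± 0.20. The more anterior Hoxa5 read 8.12, 8.05, 8.29 and 7.98 in WAT, against 10.10, 10.19, 10.19 and 9.70 in BAT (-1.93 ± 0.13). None of these 4 genes had overlapping arrays.

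Matrix genes were higher in WAT, 26 of 26 (median 1.60). Under centring on ribosomal protein genes 24 passed, all higher, and with the covariates 22 were higher (median 1.65). The range was from 0.48 ± 0.12 for elastin (Eln), the smallest and named after its value was seen, to 2.71 ± 0.17 for collagen XV (Col15a1), which sits outside basement membranes. Collagen VI (Col6a1), the pericellular net around fat cells, read 12.52, 12.61, 12.58 and 12.46 in WAT, against 9.66, 10.03, 10.24 and 9.44 in BAT (2.70 ± 0.19). Col18a1 was higher by 2.62 ± 0.18 and Col5a1 by 2.49 ± 0.16. In these 4 collagens BAT replicate 3 was the highest BAT array, and in Col15a1 WAT replicate 2 lay below the other 3 WAT arrays. Of 11 fibroblast and progenitor markers, 10 were higher (6 with the covariates), including Pdgfra (1.06 ± 0.17) and Dpp4 (1.32 ± 0.11), a marker of early adipocyte progenitors.

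Of 16 macrophage markers, 14 were higher in WAT and none lower (median 1.74). Under centring on ribosomal protein genes 12 were higher and 3 lower, and with the covariates 10 were higher (median 1.89). Galectin-3 (Lgals3) read 12.93, 13.59, 13.18 and 13.93 in WAT, against 9.16, 9.80, 9.86 and 9.16 in BAT (3.91 ± 0.29). The mannose receptor Mrc1 was higher by 2.46 ± 0.16 and the macrophage receptor Adgre1 by 2.10 ± 0.18. Gpnmb, a marker of lipid-laden macrophages, spread more widely in WAT, at 9.97, 12.04, 10.74 and 11.31, against 7.77, 7.53, 8.34 and 7.63 in BAT (3.20 ± 0.58, adjusted p = 0.000166). Itgax, which encodes CD11c, was at the floor in both. Retnla, a secreted product of alternatively activated macrophages, was higher by 4.34 ± 0.24, with 12.73 to 13.03 in WAT and 7.99, 8.80, 9.35 and 7.96 in BAT.

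MHC class II genes, which present antigen, had 8 of 10 members higher and none lower (median 1.76). The invariant chain Cd74 averaged 12.87 ± 0.09 in WAT and 10.34 ± 0.41 in BAT (2.53 ± 0.16), and the class II regulator Ciita was higher by 0.65 ± 0.09. Complement had 11 of 12 members higher (median 2.13), with properdin (Cfp) at 2.87 ± 0.19. With the covariates 9 complement members were higher and 1 lower. Of 18 chemokines and cytokines, 10 were higher and none lower (6 higher with the covariates, and 8 higher and 5 lower under that centring), led by the macrophage attractants Ccl9 (3.28 ± 0.22) and Ccl8 (2.84 ± 0.29). The inflammatory cytokine Il1b was near the floor and did not pass (-0.13 ± 0.12, adjusted p = 0.46). Interferon-responsive genes had 9 of 14 higher, led by Gbp2 (1.27 ± 0.16), with 3 higher with the covariates and 5 higher and 4 lower under that centring. Of 10 T and NK cell markers, 4 were higher (median 0.12). That count was 2 without BAT replicate 3, BAT replicate 4 or WAT replicate 4, 2 with a replicate block or over the 8 corn-oil arrays alone, 1 without BAT arrays 3 and 4 and 1 with the covariates, and under that centring 1 was higher and 8 lower. Cd3e, a part of the T cell receptor, was at the floor in both tissues. Thy1, which fibroblasts also make, was the largest of that list (1.19 ± 0.14).

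Vessel and other cell markers gave mixed results. Of 17 endothelial markers, 9 were higher in WAT and 1 lower (median 0.43), with Pecam1, the junction protein CD31, at 0.47 ± 0.10. Under centring on ribosomal protein genes the endothelial counts became 5 higher and 4 lower, and with the covariates 2 were higher. Smooth muscle actin (Acta2) read 13.54, 13.74, 13.98 and 13.72 in WAT, against 10.63, 10.88, 11.10 and 10.52 in BAT (2.96 ± 0.26). Of the 10 pericyte and smooth muscle markers, 4 were higher and 3 lower (2 and 1 with the covariates, 2 and 5 under that centring), and desmin (Des) was among the lower ones (-2.36 ± 0.34), with BAT arrays 3 and 4 the highest. Mesothelial markers, which line visceral fat, had 7 of 10 higher, led by Upk3b at 8.48 ± 0.35 in WAT and 7.17 ± 0.04 in BAT (1.31 ± 0.20). With the covariates 0 of the 10 passed (median 0.01), and under that centring 3 were higher and 4 lower (median -0.01, against 0.29 as deposited). Of 7 nerve markers, 4 were lower, led by S100b (-0.70 ± 0.09), and 2 higher, led by the myelin protein Pmp22 (1.19 ± 0.17), and with the covariates 1 was lower and 1 higher.

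Cell cycle genes were slightly higher in WAT, 10 of 11 (median 0.24), with Mcm6, a part of the replication helicase, at 0.67 ± 0.06. With the covariates 5 were higher, and centring on ribosomal protein genes gave 2 higher and 3 lower (median -0.07). Of 10 imprinted genes, 4 were higher and none lower (3 and 6 under that centring), among them Nnat (1.37 ± 0.19) and the adaptor Grb10 (1.29 ± 0.10) beside Mest, while Igf2 did not pass (-0.07 ± 0.08, adjusted p = 0.527). Cytosolic ribosomal proteins had 11 of 19 higher and none lower (median 0.27). With the covariates 3 were higher and 1 lower, and after centring on such genes 6 were higher and 5 lower. Rps4x was higher by 0.80 ± 0.10, and Rpl23 did not pass (-0.06 ± 0.15, adjusted p = 0.822).

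Other lists held calls in both directions or few. Of 8 mast cell markers, 5 were higher in WAT and 1 lower, and of 4 B cell markers 2 were higher. Of 6 red cell markers 1 was higher, of 8 thymus and lymph node markers 2 were higher and 2 lower, and of 4 epididymis and testis markers 1 was lower. Of 11 secreted factors described for brown fat, 4 were lower and 1 higher, and of 16 genes of fatty acid uptake 5 were higher and 4 lower. The 16 genes common to all adipocytes split as well, with 5 higher and 6 lower. Some of these counts rested on few arrays. Mast cell markers higher in WAT were 3 without BAT replicate 2 or WAT replicate 2 and 2 with the covariates. Fatty acid uptake genes higher were 3 without BAT replicate 1, 3 or 4 or WAT replicate 2 or 3, and 2 with the covariates. Genes common to all adipocytes were higher in 3 without BAT replicate 1 or 4, with a replicate block or with the covariates. Red cell markers higher were 3 without BAT replicate 3 and 2 without WAT replicate 1 or 4. They were 0 without BAT replicate 1, 2 or 4 or WAT replicate 2 or 3. They were also 0 without the filter, with array weights, over the 8 corn-oil arrays alone and with the covariates. Under centring on ribosomal protein genes, lower calls were 4 for mast cells, 3 for B cells, 6 for thymus and lymph node, 4 for epididymis and testis, 8 for brown fat factors, 8 for fatty acid uptake and 10 for the common adipocyte genes.

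Muscle transcripts were part of the BAT signal. Of 22 skeletal muscle markers, 20 were lower in WAT (median -3.08). Pvalb, the calcium buffer of fast fibres, read 7.35, 7.56, 7.37 and 7.49 in WAT, against 11.96, 11.78, 13.88 and 13.68 in BAT (-5.38 ± 0.76). Fast troponin I (Tnni2) differed by -5.28 ± 0.78 and the fast myosin Myh4 by -2.78 ± 0.56. The same 2 BAT arrays were highest in all 3 genes. Without them 10 of 22 markers were lower, with a median of -1.77. With the covariates 4 were lower, but the muscle covariate is the mean of these same markers. Their drop in that fit is therefore largely built in and is no test. The labels do not say how BAT was dissected, and the source of this RNA was not tested.

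Liver-type transcripts were part of the WAT signal. Of 16 markers tested, 15 were higher in WAT (median 3.62). Albumin (Alb, 7.09 in WAT and 7.05 in BAT), Fgb (7.12 and 7.08) and Tat (7.07 and 7.06) had probes near the floor. These 3 list members were not tested, and their levels cannot be read here. Apoa2, an apolipoprotein of the liver, read 14.44, 13.64, 10.58 and 13.06 in WAT, against 7.40, 8.30, 7.19 and 7.25 in BAT (5.40 ± 0.76). The major urinary protein Mup2, whose family members are near-identical and hard to separate, had the largest difference of all higher genes at 6.02 ± 0.74. Both were lowest in WAT replicate 3 and highest in BAT replicate 2. Other Mup, Serpina1 and Apoa genes were also among the 15 largest differences towards WAT, and they too were lowest in WAT replicate 3. Cyp2e1, a cytochrome that fat also makes, read 14.11, 14.22, 14.05 and 14.23 in WAT, against 8.83, 9.66, 10.16 and 9.06 in BAT (4.73 ± 0.28), with the WAT arrays too near the top of the scale to show how they vary. Transferrin (Trf) read 13.33 to 13.72 in WAT (3.90 ± 0.23). Serpina3n, a secreted protease inhibitor outside this list, read 12.63 to 13.07 in WAT and 7.92 to 9.02 in BAT (4.35 ± 0.23). The source of the varying liver-type transcripts was not tested.

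Few tissue differences were found to depend on the diet. The WAT minus BAT difference on corn oil was set against that on the low-fat diet, and 149 of 29493 probes (0.505%) passed, 99 more positive on corn oil (0.336%) and 50 more negative (0.17%). By gene these were 93 (0.652%), with 62 more positive (0.435%) and 31 more negative (0.217%). Set against the EPA/DHA HFD, 58 probes (0.197%) passed, 43 more positive (0.146%) and 15 more negative (0.0509%), in 36 genes (0.252%), 26 more positive (0.182%) and 10 more negative (0.0701%). At an unadjusted p under 0.05 these counts were 3299 and 2130 of the 29493 probes. A probe that did not pass is not shown to have the same tissue difference on both diets. Both comparisons use the same 8 corn-oil arrays, so they are not independent. The counts were 54 and 33 probes without BAT arrays 3 and 4.

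Ubd, a ubiquitin-like modifier induced by cytokines, led both comparisons. It read 10.14, 10.55, 10.18 and 11.04 in WAT on corn oil, against 7.40, 7.45, 7.35 and 7.32 in BAT. On the low-fat diet it averaged 7.92 in WAT and 7.23 in BAT, and on EPA/DHA 7.96 and 7.22. The tissue difference was thus larger on corn oil by 2.41 ± 0.22 than on the low-fat diet (adjusted p = 8.97e-06) and by 2.36 ± 0.22 than on EPA/DHA (1.81e-05). Tph2, the neuronal type of tryptophan hydroxylase in serotonin synthesis, averaged 10.49 in WAT and 7.18 in BAT on corn oil. Its difference was larger on corn oil by 2.60 ± 0.34 than on low fat (0.000816) and by 2.31 ± 0.34 than on EPA/DHA (0.0033). Stambpl1, a deubiquitinase, was larger by 0.96 ± 0.11 against low fat and by 0.81 ± 0.11 against EPA/DHA, and the potassium channel Kcnj14 by 0.51 ± 0.06 and 0.41 ± 0.06. Ear3, a ribonuclease of eosinophils with near-identical relatives, was larger by 0.87 ± 0.15 against low fat and 1.15 ± 0.15 against EPA/DHA, the matrix-associated Ccn5 by 0.61 ± 0.11 and 0.86 ± 0.11, and the actin-binding Shroom2 by 0.31 ± 0.06 and 0.43 ± 0.06. These 7 genes passed in both comparisons.

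Septin9, a part of the septin cytoskeleton, ran another way. It read 8.89, 8.58, 8.80 and 8.93 in WAT and 8.73, 8.96, 8.42 and 8.64 in BAT on corn oil, with overlapping arrays and no call (0.11 ± 0.13). On low fat it averaged 8.11 in WAT and 9.35 in BAT, and the tissue difference changed by 1.35 ± 0.18 between those diets (adjusted p = 0.00111). Against EPA/DHA the change of 0.87 ± 0.18 did not pass (0.0618). For Ucp1 the change was 0.60 ± 0.81 against low fat (0.843) and -0.31 ± 0.81 against EPA/DHA (0.972), and for Lep it was -1.74 ± 0.54 (0.186) and -1.41 ± 0.54 (0.529).

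**Figure D5:**
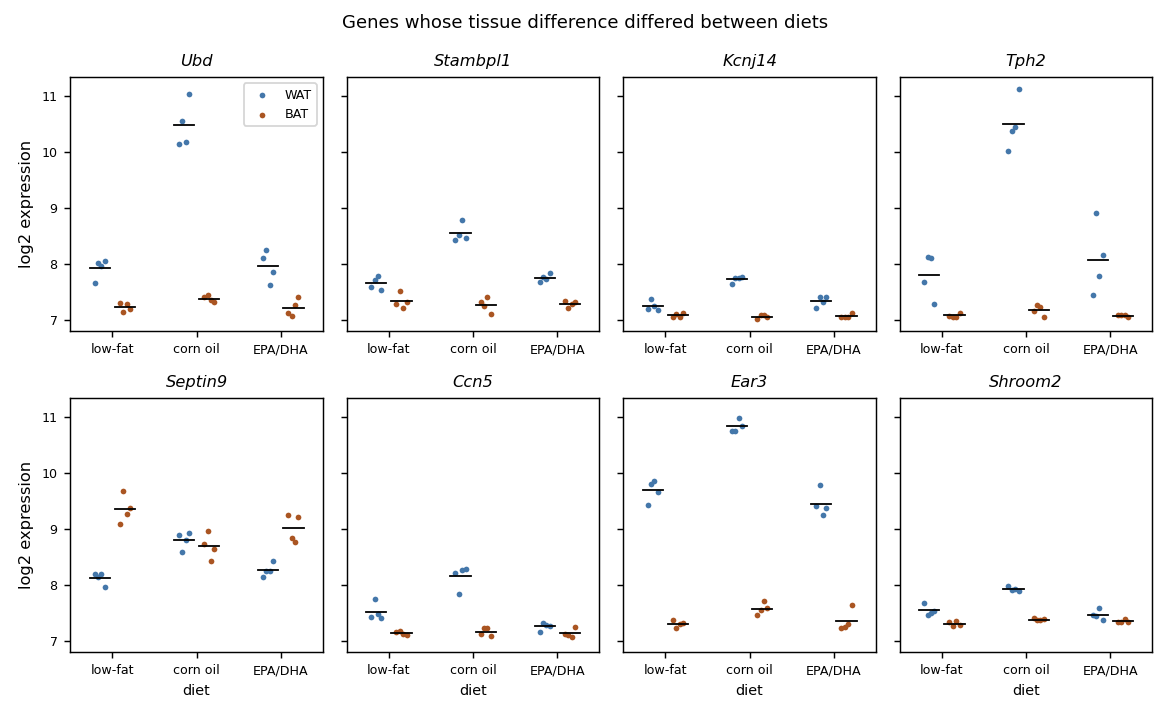
Log2 expression of the 8 genes with the smallest adjusted p for a tissue difference that differed between diets, in WAT (left of each pair) and BAT (right of each pair) on the low-fat diet, the corn-oil HFD and the EPA/DHA HFD. Points are arrays and black bars are means of 4. In 7 of the 8 genes WAT is highest on corn oil while BAT stays near the floor, and in Septin9 the 2 tissues meet on corn oil.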

How the data were processed

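RNA of 24 adipose samples had been read on Illumina arrays. The authors deposited log2 values per probe, made with lumi 2.18.0 per the submitters' processing notes. The files do not say whether the log2 scale is plain or variance-stabilised. Sorted values differed by at most 0.0069 between arrays, so total signal cannot differ between them. Array number limits the precision.

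Of 45281 probes, 34885 had 1 gene symbol, 18 several and 10378 none here. Symbols of 34818 matched RefSeq (GRCm38.p6). Each gene is its brightest probe. Probes above the 40th percentile (7.11) in the mean of either tissue were kept, 29493 in all. 1 mean per group was fitted over all 24 arrays with limma 3.58.1 (R 4.3.3), moderated and two-sided, with Benjamini-Hochberg adjustment over kept probes. The fit was tested on simulated data. Alternatives were other filters and scalings (renewed quantile, median and ribosomal protein centring), a robust prior, array weights, a replicate block, the 8 corn-oil arrays alone, the mean of a gene's probes and leaving out arrays. Detection calls were not used here.

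The members and the 51 gene lists were chosen with earlier results of these data known. Named genes were drawn from the 15 largest differences each way, though not all of those towards WAT are named. Of each list, up to 6 called and 3 not passed were named (lists of up to 20 freely). Others are fixed markers, isoform pairs and 5 genes per diet comparison. Tissue arrays with the same number were not paired by the labels or by their deviations, so no block was used. Labels do not state separate extractions, so p-values measure the spread between these arrays.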

Additional observations from a re-analysis of the deposited data

Results flagged for a closer look

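Dixon's ratio was taken in 322 groups of 4 arrays, both tissues of the tested genes named above outside the diet comparisons. At its 95% level 15 groups (4.7%) held an array far from the other 3, where chance gives about 1 in 20. Of these, 12 were in WAT. WAT replicate 4 was the high array for Ucp1 (9.38), Fabp3 (8.35), Cpt1b (8.29) and Kcnk3 (8.18), and the low array for Abcd2 (10.51) and Cox4i1 (13.39). WAT replicate 3 was high for Pdha1 (11.22) and low for Cpt1a (7.05), a probe at the floor. WAT replicate 2 was high for Ciita (8.24) and low for Col15a1 (10.57) and Rpl23 (14.23), and WAT replicate 1 was low for Ckb (11.02). In BAT, replicate 1 was high for Letmd1 (12.19) and Zic1 (7.89), and replicate 2 for Mup2 (10.14).

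The tissue difference depended on the diet, by the interaction test in limma, for 8 of the genes named. Against the low-fat diet it was more positive on corn oil by 2.41 for Ubd, 0.96 for Stambpl1, 0.51 for Kcnj14, 2.60 for Tph2, 1.35 for Septin9, 0.61 for Ccn5, 0.87 for Ear3 and 0.31 for Shroom2. Against EPA/DHA it was more positive by 2.36 for Ubd, 0.86 for Ccn5, 1.15 for Ear3, 0.81 for Stambpl1, 0.43 for Shroom2, 2.31 for Tph2 and 0.41 for Kcnj14. Septin9 did not pass against EPA/DHA (0.87).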

How the results depend on the processing

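Of 144 named genes past the threshold between WAT and BAT, 115 kept call and direction in every alternative run. The count of 10138 probes (5343 higher, 4795 lower) stayed within 1.5 times except in 2 settings. Centring on ribosomal protein genes gave 25692 (2000 higher, 23692 lower), since a constant was added to floor probes too, with 415 genes higher and 859 lower by 1 log2 unit or more. The muscle and liver covariates, added after seeing the data, gave 4551 (2219 higher, 2332 lower). Leaving out 1 array in turn gave 9091 to 9626 probes, 4859 to 5014 higher and 4218 to 4614 lower, and 632 to 677 genes higher and 530 to 547 lower by 1 log2 unit or more. The diet comparisons were less steady. The 149 probes against the low-fat diet became 56 with a replicate block, 54 without BAT arrays 3 and 4 (added later), and 55 to 149 without 1 array. The lowest was without WAT low-fat replicate 4, and counts were also over 1.5 times lower without WAT low-fat replicate 1 (87), WAT corn-oil replicates 3 (86) and 4 (81) and BAT corn-oil replicates 1 and 3 (84 each). The 58 against EPA/DHA became 18, 33 and 34 to 74, the lowest without BAT corn-oil replicate 1. The replicate block moved the tissue counts by under 1.5 times. Of the diet differences named, 14 were rerun. Those of Ucp1 and Lep against both diets passed in no setting run. The other 10 passed in every setting run. They were Ubd, Stambpl1, Kcnj14, Tph2 and Septin9 against the low-fat diet, and Ubd, Ccn5, Ear3, Stambpl1 and Shroom2 against EPA/DHA. Those of Ccn5, Ear3 and Shroom2 against the low-fat diet and of Tph2 and Kcnj14 against EPA/DHA were not rerun.

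With the covariates 28 named calls were lost, and of these the sign turned for Apoa2 (-0.22), Ckmt2 (0.41), Myh4 (0.10) and Pgam2 (0.22). These are muscle and liver transcripts, and the covariates are means of such transcripts, Apoa2 and Myh4 among them. Losses in members of the muscle and liver lists are largely built into that fit. Atp5j turned to -0.49 as the mean of its probes. Centring on ribosomal genes turned Cd36 (-0.30), Cd3e (-0.25) and Cpt1a (-0.29), which had not passed. Probes near the floor or the top limit what could be seen.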

Other observations

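Of 515 genes lower in WAT by 1 log2 unit or more outside the muscle list, WAT replicate 4 was the highest WAT array in 236 (45.8%), against 26.8% of all tested genes. Of 634 genes higher in WAT by as much outside the liver list, BAT replicate 3 was the highest BAT array in 339 (53.5%) and BAT replicate 2 in 207 (32.6%), against 24.5% and 27.4% of all tested genes. BAT replicates 1 and 4 were highest in 48 (7.6%) and 40 (6.3%). The genes were chosen by the same arrays, so these shares are a description.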
